A study of Mus musculus with 463 samples.

Results

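The Iroquois homeobox genes are 6 of the 40824 genes in the deposited count tables and were taken by symbol, Irx1 to Irx6. The family was chosen by the ventral and dorsal levels of Irx1 and Irx2 in the bulk libraries, so those side-to-side values are given as a description, with no test. The study sorted cells of the mouse embryonic pancreas and measured their RNA in 16 bulk libraries (8 groups of 2) and in 447 single cells read by Smart-seq2, a full-length method without molecular identifiers. Dorsal and ventral pancreas were collected separately, because the pancreas grows from a dorsal and a ventral bud. The bulk groups, each taken on both sides, were Pdx1-GFP+ cells at E10.5, Ngn3-GFP-low and Ngn3-GFP-high cells at E14.5 and Ins1-RFP+ cells at E17.5. The single cells were Pdx1-GFP+ cells of both sides at E9.5 and E10.5, Pdx1-GFP-high and Pdx1-GFP-low cells of both sides at E10.5, ventral Pdx1-GFP-low cells split by Liv2, a surface antigen of liver progenitors, Liv2+ cells of the liver bud at E10.5, and 4 E15.5 liver cells marked by Pdx1-Cre and ROSA26-tdTomato. GFP and RFP stand for reporters under Pdx1 (pancreatic progenitors), Ngn3 (the gene Neurog3, of endocrine progenitors) and Ins1 (insulin, beta cells). The labels name no further allele, drug treatment or strain.

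Iroquois genes encode transcription factors of the TALE class of homeodomain proteins, which carry a short additional motif, the Iro box. In the mouse they lie in a pair of clusters that arose by duplication, IrxA (Irx1, Irx2, Irx4) and IrxB (Irx3, Irx5, Irx6), and neighbours within a cluster often share expression domains in the neural tube, heart and limb. In the pancreas Irx1 and Irx2 are known as transcription factor genes of the glucagon-producing alpha cell.

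Each bulk library had between 8779418 and 24551520 gene reads, and each cell between 201191 and 1738015 with a median of 1064163. Levels are given as CPM, counts scaled to the library total after TMM normalization. Cells were summed by the numbered set that the labels give, and 37 sets of 3 or more cells in 11 groups served as replicates. Nothing in the labels says if libraries and sets came from separate embryos or litters, so p-values measure only the spread between these samples. In 25 of the 44 ventral E9.5 cells, all in set 1, the labels carry a growth protocol for human stem cells, and these were kept as mouse cells. The sorts carried their markers: Neurog3 stood at 860 to 1011 CPM in the Ngn3-GFP-high and 98.4 to 149 CPM in the Ngn3-GFP-low libraries, Ins1 at 24166 CPM or more in the Ins1-RFP+ libraries, and Pdx1 was read in all 28 dorsal and 39 ventral Pdx1-GFP-high cells, against 10 of 40 and 17 of 39 Pdx1-GFP-low cells. In bulk libraries, fewer cells of a type and less RNA per cell cannot be told apart.

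The IrxA cluster spans 1.31 Mb of chromosome 13 (71957921 to 73269608, GRCm38, GENCODE vM21) and the IrxB cluster 0.882 Mb of chromosome 8 (91798525 to 92680956). Irx1 lies at 71957921 to 71963723 on the minus strand, Irx2 at 72628820 to 72634198 on the plus strand and Irx4 at 73260479 to 73269608 on the plus strand. In IrxB, Irx3 lies at 91798525 to 91802067 on the minus strand, Irx5 at 92357625 to 92376286 on the plus strand and Irx6 at 92674288 to 92680956 on the plus strand. The 3 IrxA members all code for protein, and 2 of the 10 other annotated genes between them are in the count tables. One of these 2 is Gm20554, a long non-coding RNA gene on the minus strand (72626213 to 72628564) that points away from Irx2, with 255 bases between both starts. This stretch is shown because the data below bear on both genes: they had nearly the same pattern over the libraries. It is the RefSeq promoter entry of Irx2 (GRCm38.p6, chr13:72628570-72628819, plus strand), and its capitals mark its only E-box (CANNTG), the letters bound by the basic helix-loop-helix class to which Neurog3 belongs.
Irx2 promoter, 250 bases up to the start: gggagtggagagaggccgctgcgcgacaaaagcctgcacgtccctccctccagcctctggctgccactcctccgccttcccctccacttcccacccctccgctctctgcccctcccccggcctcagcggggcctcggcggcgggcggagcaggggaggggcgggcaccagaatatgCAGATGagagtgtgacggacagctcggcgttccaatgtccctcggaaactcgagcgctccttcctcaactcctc
The letters CAGATG lay 74 to 69 bases before the Irx2 start. On either strand CAGATG is found in 14.4% of 32851 RefSeq promoters cut to the same 250 bases, and CANNTG in 66.2%, so the match is common and is only a description. Of the other motifs searched on both strands, CAGCTG (held by 13.0% of promoters), ACANNTGT (6.31%) and TAATTA (4.84%), none was in the Irx2 window. All but TAATTA hold the E-box letters and so overlap with CANNTG.

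Irx1 and Irx2 were the only members above 3 CPM in any bulk library, and both were far higher in the dorsal than in the ventral E10.5 Pdx1-GFP+ libraries. Irx2 stood at 117 and 140 CPM in the dorsal E10.5 libraries and at 2.57 and 1.75 CPM in the ventral ones, a log2 difference of -5.92 for ventral against dorsal. Irx1 stood at 95.8 and 111 CPM in the dorsal and at 2.15 and 1.75 CPM in the ventral libraries, a log2 difference of -5.73. The groups of neither gene overlapped. These are among the values that chose the genes, so no test of them is given; as background, 24.7% of the 17690 tested genes passed an adjusted p of 0.05 in this comparison. Per length, Irx1 and Irx2 were at similar levels in these libraries, at 43.5 and 49.0 CPM per kb on the dorsal side and 0.822 and 0.821 CPM per kb on the ventral side.

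Both genes were below 1 CPM in the E14.5 Ngn3-GFP-low libraries and high again in the Ngn3-GFP-high ones. In the Ngn3-GFP-low libraries Irx2 stood at 0.557 and 0.939 CPM (dorsal) and 0.259 and 0.237 CPM (ventral). In the Ngn3-GFP-high libraries it stood at 131 and 135 CPM (dorsal) and 30.3 and 28.8 CPM (ventral). In the E17.5 Ins1-RFP+ libraries it stood at 11.7 and 14.8 CPM (dorsal) and 2.77 and 2.40 CPM (ventral). The dorsal libraries were above the ventral ones in each of these sorts without overlap, as the groups of 37.7% (Ngn3-GFP-high), 28.1% (Ngn3-GFP-low) and 25.6% (Ins1-RFP+) of all genes were. Irx1 had the same order: 0.434 and 0.752 CPM against 0.130 and 0.119 CPM in the Ngn3-GFP-low libraries, dorsal against ventral. It then stood at 80.7 and 76.0 CPM against 15.54 and 12.9 CPM in the Ngn3-GFP-high libraries. In the Ins1-RFP+ libraries it stood at 5.53 and 6.92 CPM against 0.770 and 1.46 CPM. The log2 differences of ventral against dorsal, again given without a test, were -2.47 (Irx1) and -2.17 (Irx2) in Ngn3-GFP-high cells, -2.18 and -1.56 in Ngn3-GFP-low cells, and -2.52 and -2.33 in Ins1-RFP+ cells. Of all tested genes, 0.537%, 0.0170% and 0.0283% passed in these 3 comparisons.

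**Figure D1:**
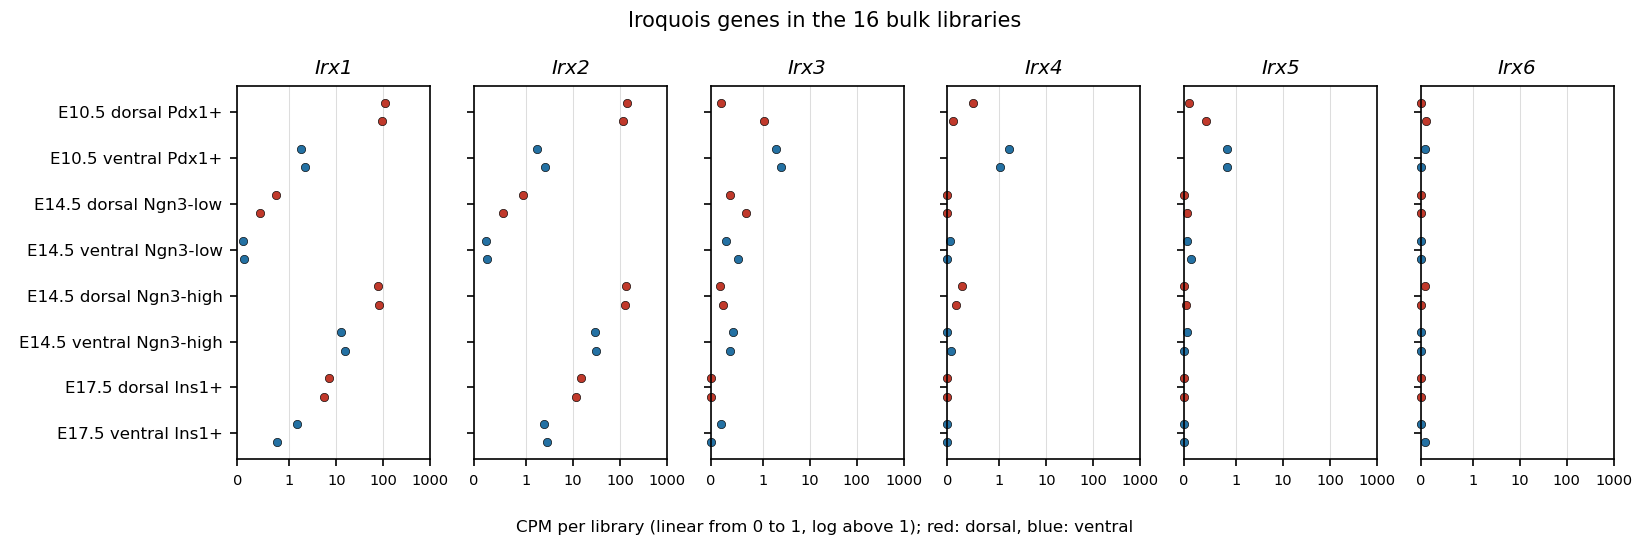
Each dot is 1 bulk library, the y axis lists the 8 groups and the x axis gives CPM, linear from 0 to 1 and logarithmic above, with 1 panel per gene. Irx1 and Irx2 are highest in the E10.5 dorsal and E14.5 Ngn3-high dorsal libraries, and Irx3 to Irx5 stay below 3 CPM in all 16.

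Ordered by mean, Irx2 was highest in dorsal Ngn3-GFP-high libraries (133 ± 2.67 CPM, SD, n = 2) and dorsal E10.5 Pdx1-GFP+ libraries (129 ± 15.8 CPM, SD, n = 2), whose ranges overlapped. Ventral Ngn3-GFP-high, dorsal Ins1-RFP+, ventral Ins1-RFP+ and ventral E10.5 libraries followed, and the last pair overlapped (2.40 to 2.77 against 1.75 to 2.57 CPM). Dorsal and then ventral Ngn3-GFP-low libraries were lowest. Irx1 differed in that order at the top, where the dorsal E10.5 libraries (95.8 and 111 CPM) lay above the dorsal Ngn3-GFP-high libraries (80.7 and 76.0 CPM), and further down, where the ventral E10.5 libraries lay above the ventral Ins1-RFP+ libraries.

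The comparison of Ngn3-GFP-high with Ngn3-GFP-low cells asks what distinguishes endocrine progenitors and early endocrine cells from the cells of the low gate at E14.5. The choice of the genes used the side-to-side values of these libraries, though not this contrast. The dorsal Ngn3-GFP-high levels were thus among the values picked as high, and the p-values of the dorsal rise do not allow for that. The same holds for the dorsal fall from Ngn3-GFP-high to Ins1-RFP+ cells. All bulk comparisons of stages that follow use libraries that took part in the choice. Irx2 rose by 7.45 on the log2 scale on the dorsal side (SE 0.198, adjusted p = 2.78e-14) and by 6.85 on the ventral side (SE 0.248, adjusted p = 6.95e-13), by the quasi-likelihood test of edgeR, adjusted after Benjamini and Hochberg over 17690 genes. Irx1 rose by 7.03 (SE 0.227, adjusted p = 2.14e-13) and by 6.74 (SE 0.319, adjusted p = 1.9e-11) in the same edgeR fit. Both libraries of each high group lay above both of the low group; groups did not overlap for 81.4% (dorsal) and 77.9% (ventral) of all genes. On the dorsal side 3 of the 5 testable members passed, where 61.3% of all genes did (29.2% higher), and on the ventral side 2 of 5, where 61.8% did (29.5% higher). A pass alone is thus common here; the sizes of the Irx1 and Irx2 changes are the measurement. The additional dorsal member was Irx4, known for its expression in the heart ventricles, with 7 reads in the Ngn3-GFP-high and 0 in the Ngn3-GFP-low libraries, or at least 2.12-fold higher against a floor of 3 reads over the group (edgeR adjusted p = 0.0368). That call was lost with DESeq2 (adjusted p = 0.101) and when any 1 of the 4 libraries was left out (edgeR adjusted p = 0.0629 to 0.117).

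From Ngn3-GFP-high cells at E14.5 to Ins1-RFP+ cells at E17.5 both genes fell on both sides. The log2 difference of Irx2 was -3.33 on the dorsal side (SE 0.142, edgeR adjusted p = 3.97e-11) and -3.50 on the ventral side (SE 0.18, edgeR adjusted p = 2.63e-10). That of Irx1 was -3.67 (SE 0.173, edgeR adjusted p = 1.17e-10) and -3.72 (SE 0.239, edgeR adjusted p = 3.33e-09). The stage and the reporter changed together here and cannot be told apart. Of the 5 testable members 2 passed on each side, both lower, where 23.1% (dorsal) and 24.5% (ventral) of all genes passed as lower, and 47.4% and 51.0% in either direction. Irx3 had 8 reads in the dorsal Ngn3-GFP-high libraries and 0 in the Ins1-RFP+ ones (edgeR adjusted p = 0.0635), and Irx4 had 7 and 0 reads (edgeR adjusted p = 0.0804). Without the second ventral Ins1-RFP+ library Irx3 also passed on the ventral side (edgeR adjusted p = 0.0463).

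From Pdx1-GFP+ cells at E10.5 to Ngn3-GFP-low cells at E14.5, stage and sort changed together. On the dorsal side Irx1 fell by 7.42 (edgeR adjusted p = 3.72e-13) and Irx2 fell by 7.41 (edgeR adjusted p = 1.07e-13) on the log2 scale. The dorsal E10.5 libraries are among those whose levels chose these genes. The dorsal falls thus start from values picked as high, and their p-values do not allow for that. On the ventral side, which started from about 2 CPM, Irx1 fell by 3.87 (SE 0.47, edgeR adjusted p = 3.59e-06) and Irx2 fell by 3.05 (SE 0.391, edgeR adjusted p = 6.4e-06). The dorsal count was 3 of 5 members lower (32.2% of all genes lower, 59.8% in either direction). The ventral count was 5 of 5 (28.1% lower, 55.2% in either direction). Irx3, Irx4 and Irx5 passed the filter on low counts only through their E10.5 libraries. Their ventral fall from E10.5 was thus favoured in advance, and nothing is read from that count. The third dorsal member, Irx4, went from 6 reads to 0 (at least 3.33-fold lower, edgeR adjusted p = 0.0211). It did not pass with DESeq2 (adjusted p = 0.0671) or in 3 of the 4 fits that left out 1 library (edgeR adjusted p up to 0.216).

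The remaining members followed another pattern over the bulk groups, with their highest levels in the E10.5 libraries. Irx3, known with Irx5 for roles in limb, heart and hypothalamus, stood at 2.46 and 1.91 CPM in the ventral and 1.07 and 0.201 CPM in the dorsal E10.5 libraries, a log2 difference of 1.78. Irx4 stood at 1.03 and 1.58 CPM (ventral) and 0.107 and 0.502 CPM (dorsal), a difference of 2.05. Irx5 stood at 0.821 and 0.831 CPM (ventral) and 0.429 and 0.1004 CPM (dorsal), a difference of 1.63. The ventral libraries were the higher ones for all 3 genes, and the groups did not overlap; groups did not overlap for 61.8% of all tested genes in this comparison. These differences go the opposite way to those of Irx1 and Irx2 and are likewise given with no test. By the E14.5 Ngn3-GFP-low sort, the ventral levels of all 3 had fallen. These genes could be tested only because of their E10.5 levels, so a fall was favoured in advance. The p-values of these falls do not allow for that. Irx3, at 0.518 and 0.296 CPM there, fell by 2.40 on the log2 scale (SE 0.642, edgeR adjusted p = 0.00515). Irx4, at 0 and 0.0593 CPM, went from 29 reads to 1, a ratio of 43.0 (95% counting interval 7.13 to 1758, edgeR adjusted p = 0.000924). Irx5, at 0.130 and 0.0593 CPM, went from 18 reads to 3, a ratio of 8.9 (2.6 to 47.2, edgeR adjusted p = 0.00943). Without the second ventral Ngn3-GFP-low library Irx3 and Irx5 no longer passed (edgeR adjusted p = 0.0525 and 0.0755), which leaves 3 members, and Irx5 did not pass with DESeq2 (adjusted p = 0.189). All 3 were at 0.681 CPM or less in every E14.5 and E17.5 library.

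Over these bulk libraries, markers of heart muscle moved in the same direction as these 3 genes. The 8 cardiac muscle markers summed to 1285 to 2256 CPM in the ventral E10.5 libraries and to 8.03 to 27.3 CPM in the dorsal ones. All 8 passed as higher on the ventral side, where 24.7% of all genes passed in either direction. In the ventral Ngn3-GFP-low libraries they summed to 1.36 to 1.81 CPM. All 8 had fallen from E10.5, where 28.1% of all genes passed as lower. The mesenchyme markers also summed higher in the ventral E10.5 libraries, at 868 to 1306 CPM against 345 to 356 CPM. In the summed ventral single cells of any sort the cardiac markers reached at most 30.9 CPM. Tnnt2, a marker of that list, was read in at most 19.4% of the cells of any single-cell group. It had reads in 0 of the 26 cells with 10 or more Irx3 reads and 0 of the 10 cells with Irx5 reads. The same was true of the 3 cells that held most Irx4 reads. Col3a1, of the mesenchyme list, had reads in 4 of those 26 Irx3 cells, 5 of those 10 Irx5 cells and 0 of those 3 Irx4 cells. Its median in the Irx5 cells was 0.517 CPM, and it was read in at most 25% of the cells of any single-cell group. The part of heart muscle and mesenchyme cells in the bulk levels of Irx3, Irx4 and Irx5 was not tested. Irx3 shares 1653 bases with its antisense gene Irx3os (91800415 to 91807539, plus strand); the bulk kit keeps strand, but the setting used for counting is not given in the sources used here, and Smart-seq2 does not keep it, so reads of both genes cannot be told apart. Irx6, known from the retina, had 4 reads in all 16 bulk libraries and passed neither filter on low counts.

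Across the 16 bulk libraries, the pattern split the family, but not exactly along the genomic clusters. As a description over libraries that share the 8 groups, Pearson's r of log2(CPM + 1) was 0.989 for Irx1 and Irx2 and 0.936 for Irx3 and Irx5, the pairs within each cluster. Irx4, which belongs to IrxA, was at 0.0935 with Irx1 and 0.0208 with Irx2, against 0.743 with Irx3 and 0.847 with Irx5 of IrxB. Irx4 had 44 reads in the 16 libraries, 29 of them in the ventral E10.5 group, so its r values rest largely on that group. The genes most like Irx2, beside Irx1 and with unnamed models left out, were Xpnpep2 (r = 0.969), Abcc12 (0.966), Edn3 (0.958) and Nxph1 (0.956). The genes most like Irx1 were Irx2 and the same 4. Over the 8 group means in place of the 16 libraries, 4 of the 5 nearest genes were shared for Irx1 and for Irx2, and 1 of 5 each for Irx3, Irx4 and Irx5. The nearest gene was Myom2, a muscle gene, for Irx3 (r = 0.939), Aknaos for Irx4 (0.960) and Ppp1r3g for Irx5 (0.981), all at low levels of the member, so these lists for Irx3, Irx4 and Irx5 rest on few reads.

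Gm20554, whose start faces that of Irx2, had a correlation of 0.969 with Irx2 over the 16 libraries. It stood at 7.29 and 9.74 CPM in the dorsal and 0.103 and 0.166 CPM in the ventral E10.5 libraries, and at 7.81 and 8.16 CPM (dorsal) and 2.45 and 2.11 CPM (ventral) in the Ngn3-GFP-high ones. It rose from Ngn3-GFP-low to Ngn3-GFP-high cells by 7.63 on the log2 scale on the dorsal side (edgeR adjusted p = 1.06e-08) and by 5.83 on the ventral side (edgeR adjusted p = 1.1e-06). In single cells it had reads in 39 of 447, and 32 of those 39 also had Irx2 reads. Among dorsal Pdx1-GFP-low cells all 25 with Gm20554 had Irx2, where 39 of 40 cells did.

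The single cells divided the dorsal E10.5 signal by sort. Irx2 was high in every set of dorsal Pdx1-GFP-low cells, between 101 and 325 CPM in the 6 sets with a median of 194 CPM. It was between 0 and 0.249 CPM in the 5 sets of dorsal Pdx1-GFP-high cells, which held 3 reads against 9191. The level fell from the low to the high gate by a pooled ratio of 1728 (95% counting interval 591 to 8383; edgeR adjusted p = 2.38e-07 over 17433 genes). Irx1 was between 3.43 and 7.12 CPM in the low and at 0 reads in the high sets, or at least 54.0-fold lower (edgeR adjusted p = 0.00343). These were 2 of the 5 testable members, in a comparison in which 24.1% of genes passed and 11.1% passed as lower. Intervals and floors cover counting error only.

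On the ventral side Irx2 and Irx1 were near absent in the same low gate. The 5 ventral Pdx1-GFP-low sets held 1 read of Irx2 and 0 of Irx1, against 9191 and 287 reads in the 6 dorsal sets. Irx2 was thus lower by a pooled ratio of 8454 (1517 to 333951; edgeR adjusted p = 4.6e-08) and Irx1 at least 88.0-fold lower (edgeR adjusted p = 0.00215). Of all genes 24.9% passed in this comparison, and 11.1% passed as lower. The 5 ventral Pdx1-GFP-high sets held 2 reads of Irx2, between 0 and 0.185 CPM. The difference between the sides in the change from low to high gate was 11.69 on the log2 scale for Irx2 (edgeR adjusted p = 0.0221, where 11.2% of genes passed), a contrast added after these values were seen. That p was 0.124 without ventral Pdx1-GFP-high set 2 and 0.118 without set 6, the only ventral high sets with an Irx2 read. Since ventral groups held 1 or 2 reads, the size of this fitted difference depends on the prior count.

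**Figure D2:**
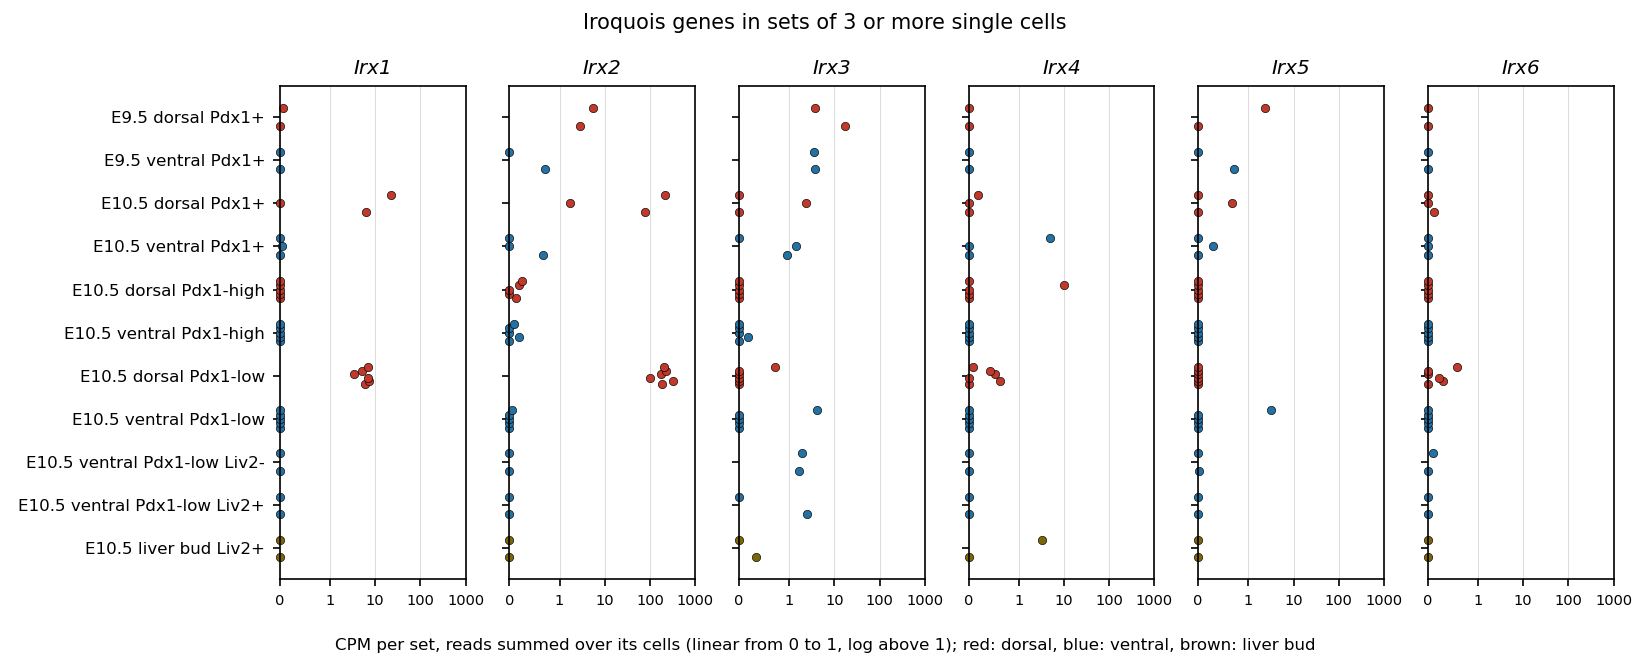
Each dot is 1 set of summed cells, the y axis lists the sorted groups and the x axis gives CPM, linear from 0 to 1 and logarithmic above, with 1 panel per gene. All 6 dorsal Pdx1-low sets lie between 101 and 325 CPM for Irx2, while every set of the Pdx1-high groups lies below 0.3 CPM.

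The dorsal E10.5 Pdx1-GFP+ sets, sorted without the split into high and low, differed widely among themselves. Irx2 stood at 77.6, 1.71 and 211 CPM and Irx1 at 6.15, 0 and 22.7 CPM in sets 1, 2 and 3. These sets differed in their share of cells rich in Gcg, the glucagon gene: 4 of 11, 0 of 10 and 6 of 6 cells. Irx2 reads were found in 5, 1 and 6 cells of them. In the ventral Pdx1-GFP+ sets Irx2 stood at 0.668, 0 and 0 CPM and Irx1 at 0, 0.0411 and 0 CPM. Irx2 was lower on the ventral side, with a log2 difference of -8.28 (SE 1.3, edgeR adjusted p = 0.00073), and Irx1 did not pass (edgeR adjusted p = 0.191), in a comparison in which 0.402% of genes passed, 0.344% as lower. Without dorsal Pdx1-GFP+ set 2 both passed, with Irx2 at -8.86 (edgeR adjusted p = 8.01e-06) and Irx1 at an edgeR adjusted p of 0.0485.

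At E9.5 the signal of Irx1 and Irx2 was low on both sides. Irx2 stood at 2.77 and 5.57 CPM in the dorsal and at 0.718 and 0 CPM in the ventral sets, and Irx1 at 0 and 0.0700 CPM in the dorsal sets and at 0 in the ventral ones. None of the 5 testable members passed between the sides in edgeR, and 0 of all 17433 genes did; at an unadjusted p below 0.05 there was 1, Irx2, with a log2 difference of -3.44 (unadjusted p = 0.00993 from edgeR's quasi-likelihood test), and DESeq2 called 0. From E9.5 to E10.5 in dorsal Pdx1-GFP+ cells the Irx2 difference was 4.51 on the log2 scale (edgeR adjusted p = 0.145, with 0.275% of genes passing). Without E10.5 set 2 it was 5.09 and passed (edgeR adjusted p = 0.0107). The difference of this stage change between the sides was -4.85 for Irx2 and did not pass (edgeR adjusted p = 0.981, 0.0516% of genes passing).

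The remaining set comparisons called 0 of the 5 members in edgeR and in DESeq2. These were ventral against dorsal in the Pdx1-GFP-high gate (0.0172% of genes passed), Pdx1-GFP-high against -low on the ventral side (0.964%), Liv2+ against Liv2- (0), liver bud against ventral Liv2+ cells (0.585%) and the ventral stage change (0). At an unadjusted p below 0.05 they held 1, 2, 0, 0 and 0 members, which were Irx4 in the first and Irx3 and Irx5 in the second.

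Counted by cells, Irx2 was detected in nearly all dorsal Pdx1-GFP-low cells, 39 of 40 (97.5%, exact Clopper-Pearson 95% interval 86.8% to 99.9%). In dorsal Pdx1-GFP+ cells it was detected in 12 of 27 (44.4%, 25.5% to 64.7%) and in dorsal E9.5 cells in 6 of 31 (19.4%, 7.45% to 37.5%). In dorsal Pdx1-GFP-high cells 3 of 28 (10.7%) had 1 read each, and such a share can come from stray reads; the median depth was 980160 reads in these cells and 1200823 reads in the dorsal Pdx1-GFP-low cells. Irx1 was detected in 30 of 40 dorsal Pdx1-GFP-low cells (75%, 58.8% to 87.3%) and in 10 of 27 dorsal Pdx1-GFP+ cells (37.0%, 19.4% to 57.6%). It was in 0 of 28 dorsal Pdx1-GFP-high cells, with an exact interval up to 12.3%. With each cell thinned to 200000 reads the dorsal Pdx1-GFP-low shares were 95% for Irx2 and 60% for Irx1, and the Irx2 share was 16.1% in dorsal E9.5 cells and 0 in dorsal Pdx1-GFP-high cells. Every ventral group had Irx2 in at most 2 cells and Irx1 in at most 1. Of the 4 E15.5 liver cells, 1 had Irx2 reads.

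**Figure D3:**
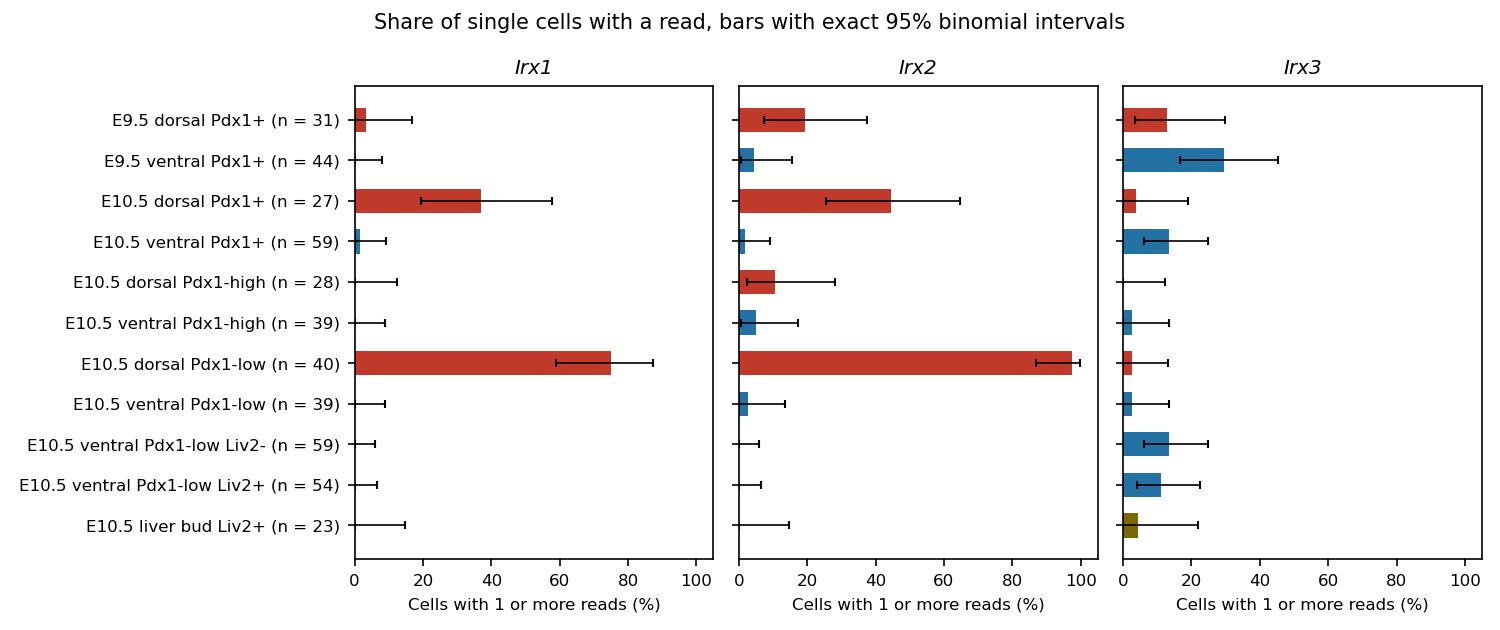
Bars give the percent of cells with at least 1 read (x axis, from 0) of Irx1, Irx2 and Irx3 in each sorted group (y axis), with exact 95% intervals as lines. Irx2 reaches 97.5% and Irx1 75% of dorsal Pdx1-low cells, and the highest share of Irx3 is 29.5% of ventral E9.5 cells.

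Irx1 was found almost only in cells that also had Irx2. Of the 42 cells with Irx1 reads 40 had Irx2 reads (95.2%), and of the 67 cells with Irx2 reads 59.7% had Irx1. In the dorsal Pdx1-GFP-low cells 30 of 30 Irx1 cells had Irx2, where 39 of 40 cells did, and in the dorsal Pdx1-GFP+ cells 10 of 10, where 12 of 27 did. Irx3 and Irx5 were found together in 7 cells (15.9% of the Irx3 and 70% of the Irx5 cells). Across the clusters, Irx3 shared 1 cell with Irx1 and 3 with Irx2. Irx4 had reads in 11 cells, of which 0 had Irx3, 0 had Irx5, 7 had Irx1 and 8 had Irx2. Of these 8 cells 7 were dorsal Pdx1-GFP-low cells, where 39 of 40 cells had Irx2 and Irx4 had 8 reads in all. Most Irx4 reads lay in 3 cells without Irx1 or Irx2 reads, with 51 reads in a dorsal Pdx1-GFP-high, 43 in a liver bud and 7 in a ventral Pdx1-GFP+ cell. Irx6 had 20 reads in 6 cells, 5 of them with Irx2.

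All cells rich in glucagon message had Irx2. Gcg was at 1000 CPM or more in 48 of 447 cells; the lowest of these was at 2016 CPM and the highest below the limit at 554 CPM. Irx2 reads were in all 48 and Irx1 reads in 38 of 48, against 19 cells with Irx2 and 4 with Irx1 among all others. Irx2 ranged from 45.9 to 578 CPM (median 173 CPM) in the 10 such cells of the dorsal Pdx1-GFP+ sort and from 3.38 to 538 CPM (median 192 CPM) in the 38 of the dorsal Pdx1-GFP-low sort. The single dorsal Pdx1-GFP-low cell without Irx2 reads had Gcg at 449 CPM and Pdx1 at 287 CPM. Within the 48 cells the amount of Irx2 did not go with the amount of Gcg (Pearson's r of log2 values -0.07, as a description over cells that share sets), and it was at 0.30 with Irx1.

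**Figure D4:**
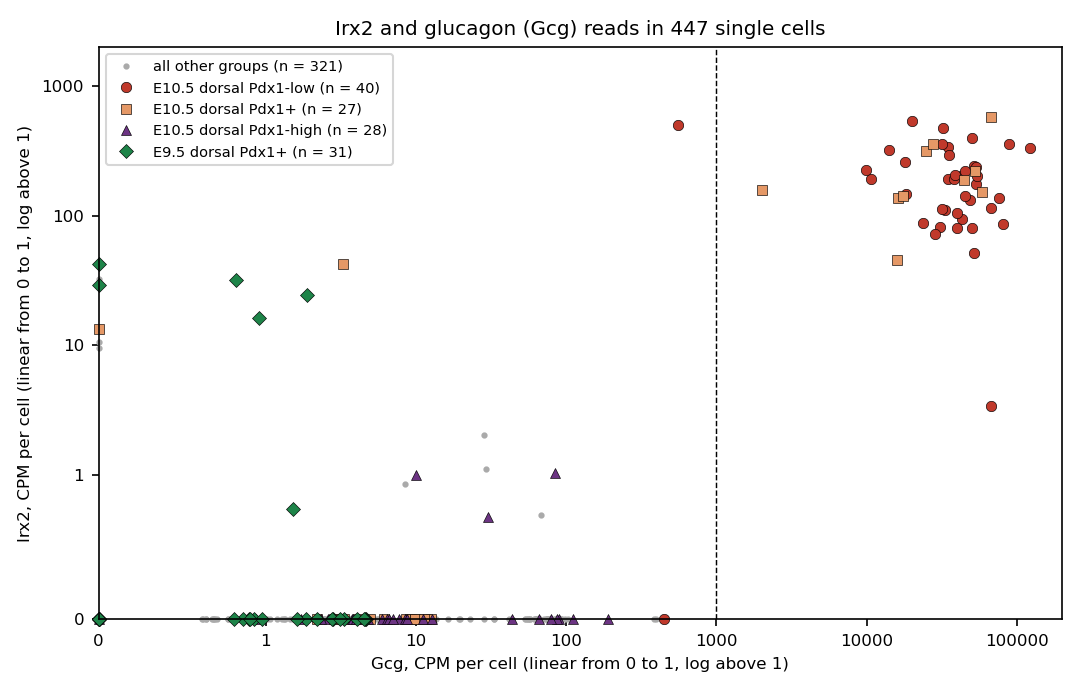
Each dot is 1 cell, with Gcg on the x axis and Irx2 on the y axis, both in CPM per cell, linear from 0 to 1 and logarithmic above; colours and marks give the sorted group and the dashed line 1000 CPM of Gcg. The 48 cells at or above 1000 CPM of Gcg all have Irx2 reads, and the amounts of both genes show no common trend among them.

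Some cells with Irx2 had little glucagon message. In the dorsal Pdx1-GFP+ cells there were 2, and they had Neurog3, the endocrine progenitor factor, at 56.5 and 308 CPM. The 6 dorsal E9.5 cells with Irx2 had Gcg at 1.88 CPM at most, and 5 of 6 had Cdx2, a factor of the intestine, which 16 of the 31 cells of that group had.

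In the bulk libraries Irx2 and Gcg were both highest in the dorsal E10.5 and dorsal Ngn3-GFP-high groups, but their order differed further down. The correlation of Irx2 over the 16 libraries was 0.883 with Gcg, 0.508 with Neurog3 and 0.322 with Ins1. At E10.5 Gcg stood at 2392 to 2440 CPM on the dorsal and 6.65 to 36.5 CPM on the ventral side, the same direction as Irx2. In the Ngn3-GFP-high libraries Irx2 was at 131 to 135 CPM on the dorsal and 28.8 to 30.3 CPM on the ventral side, and Gcg at 2172 to 2238 CPM and 210 to 248 CPM. In the Ins1-RFP+ libraries Gcg stood at 847 to 1045 CPM (dorsal) and 162 to 175 CPM (ventral), again with the dorsal libraries higher. Gcg was thus higher in the dorsal Ins1-RFP+ than in the ventral Ngn3-GFP-high libraries. Irx2 was lower there, at 11.7 and 14.8 CPM against 28.8 to 30.3 CPM. Neurog3 did not share that difference in the Ngn3-GFP-high libraries, with 860 to 943 CPM on the dorsal and 896 to 1011 CPM on the ventral side.

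Other TALE homeobox genes (12, from the Meis, Pbx, Pknox and Tgif groups and Mkx, among them partners of Hox proteins) went in both directions from Ngn3-GFP-low to -high cells. On the dorsal side 4 rose and 5 fell, with a median log2 change of 0.053, where 29.2% of all genes rose and 32.1% fell. On the ventral side 5 rose and 5 fell, with a median of 0.14, where 29.5% of all genes rose and 32.4% fell. Meis3 rose by 2.28 and 1.97 and Meis2 by 1.63 and 1.56 on the log2 scale (dorsal and ventral). Tgif1 changed by -3.08 and -2.99, and Tgif2 by -2.01 and -1.94. From Ngn3-GFP-high to Ins1-RFP+ cells none rose and 5 (dorsal) or 4 (ventral) fell, where 23.1% and 24.5% of all genes fell. In the dorsal sets 6 of 12 were higher in Pdx1-GFP-high than in -low cells and none lower, where 13.0% of all genes passed as higher and 11.1% as lower, with Tgif1 at 4.88, Tgif2 at 3.93, Meis2 at 2.67 and Meis1 at 1.97 on the log2 scale, the opposite direction to Irx1 and Irx2.

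Irx3 was found mainly outside the glucagon-rich cells, on both sides and in the liver bud. Its sets at E9.5 stood at 16.9 and 3.68 CPM (dorsal) and 3.76 and 3.54 CPM (ventral), the highest group means of Irx3. The dorsal levels rest largely on 1 cell per set, with 109 of 110 reads in set 1 and 94 of 105 in set 2. Irx3 had no reads in dorsal Pdx1-GFP-high sets, and in the dorsal Pdx1-GFP-low, ventral Pdx1-GFP-high and ventral Pdx1-GFP-low groups 1 set each had reads, at 0.715, 0.185 and 4.06 CPM. At E10.5 it stood at 0, 2.39 and 0 CPM in dorsal and 0.954, 1.44 and 0 CPM in ventral Pdx1-GFP+ sets. It stood at 2.47 and 0 CPM in Liv2+ sets, 1.68 and 1.92 CPM in Liv2- sets and 0.336 and 0 CPM in liver bud sets. Within most groups the sets spread from 0 to the level of the other groups, and no comparison of Irx3 between sets passed. By cells, Irx3 was detected in 13 of 44 ventral E9.5 cells (29.5%, exact interval 16.8% to 45.2%), or 18.2% of them after thinning to 200000 reads. These were 8 of the 25 cells that carry the human stem cell protocol in the labels and 5 of the other 19. Irx3 was detected in 4 of 31 dorsal E9.5 cells (12.9%, or 6.45% after thinning) and 8 of 59 ventral Pdx1-GFP+ cells. It was in 8 of 59 Liv2- cells (13.6%, 6.04% to 25.0%) and 6 of 54 Liv2+ cells (11.1%). Of the 26 cells with 10 or more Irx3 reads, 25 had reads of the liver gene Afp, 20 of Sox17, an endoderm and bile duct factor, 14 of Pdx1 and 0 of Neurog3. Afp was read in most cells of those sorts in any case. Sox17 was read in 51 of 59 Liv2-, 42 of 54 Liv2+ and 30 of 44 ventral E9.5 cells, and Neurog3 in 0 cells of each. The Sox17 and Neurog3 counts thus largely reflect the sorts.

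Irx4, Irx5 and Irx6 came from few cells: 110 reads of Irx4 in 11 cells, 154 of Irx5 in 10 and 20 of Irx6 in 6, against 11135 reads of Irx2 in 67, 457 of Irx1 in 42 and 770 of Irx3 in 44. The higher set levels of Irx4 and Irx5 thus rest on 1 or a few cells each, such as Irx5 at 2.35 CPM in dorsal E9.5 set 2. Irx4 was at 4.79 CPM in ventral Pdx1-GFP+ set 3 and 3.35 CPM in liver bud set 2. Bulk and set levels were scaled apart and are not compared with each other.

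The ratio of Irx1 to Irx2 per length differed between the methods. In the 8 bulk libraries with 100 or more Irx2 reads it was between 0.495 and 0.903 with a median of 0.596, and in the 9 sets with that many reads between 0.0139 and 0.119 with a median of 0.0352. The ranges did not overlap. In the 48 glucagon-rich cells the median was 0.0257. In dorsal E10.5 Pdx1-GFP+ cells, the stage and sort that both methods share, it was 0.903 and 0.876 in the bulk libraries and 0.0876 and 0.119 in the sets with enough reads. Each ratio is taken within a library or set, so the scaling of the tables does not enter it. The cause of the difference was not tested.

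**Figure D5:**
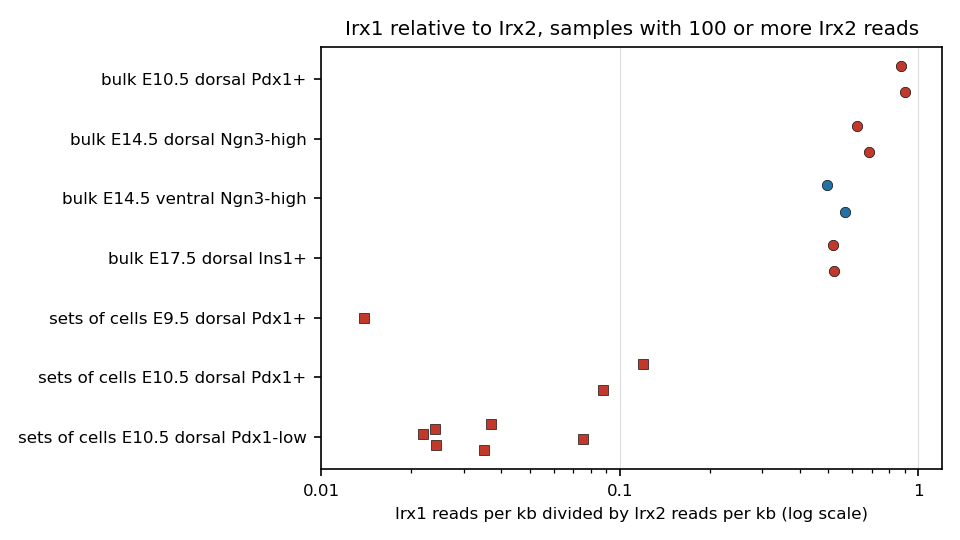
Each dot is 1 bulk library or 1 set of cells with 100 or more Irx2 reads, the y axis lists the groups and the x axis gives the ratio of Irx1 to Irx2 reads per kb on a log scale. All 8 bulk libraries lie at 0.495 or above and all 9 sets at 0.119 or below.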

How the data were processed

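RNA of sorted mouse embryonic cells was measured in 16 bulk libraries and 447 single cells. Per the labels' protocols, bulk RNA was selected by poly(A) and made into directional libraries, and single cells were read by Smart-seq2. Per the submitters' processing notes, the tools were TopHat2 2.1.0, Bowtie2 and HTSeq 0.6.0 and the build GRCm38/mm10. The counting's strand setting is not given in the sources used here, nor is the annotation release. Deposited values are whole-number read counts per gene for 40824 genes, not normalized by the authors. No doublet caller was run.

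Library totals were scaled by TMM. Genes were filtered with filterByExpr and tested with edgeR 4.0.16 (R 4.3.3) by the quasi-likelihood F test, in 1 model of all 16 bulk libraries and 1 of 37 sets of summed cells, with Benjamini-Hochberg adjustment over 17690 and 17433 genes and a threshold of 0.05. Sets of fewer than 3 cells (3 sets, 5 cells) and the single E15.5 set were left out of tests. A standard error (SE) is the size of a log2 difference over the root of its F statistic, so it restates the test. Irx6 did not pass the filters. Against groups without reads, a floor of 3 reads over the group gives a bound; against 1 to 3 reads the pooled ratio has an exact 95% counting interval. Shares of cells have exact Clopper-Pearson intervals. Bulk CPM and set CPM use TMM totals, CPM per cell the plain total, and CPM per kb the deposited gene length. Coordinates come from GENCODE vM21 by Ensembl identifier, and promoters from RefSeq (GRCm38.p6), which matched 3 of the 6 members, Irx2, Irx3 and Irx4; the Irx3 and Irx4 windows held none of the 5 motifs searched.

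The members and the lists (other TALE homeobox, cardiac muscle, mesenchyme) were chosen with earlier results of these data known. Named genes were all members, up to 4 list genes per comparison, neighbours in the clusters and, per member, the 5 genes with the highest correlation over the bulk libraries, without unnamed, ribosomal and mitochondrial genes. The results were recomputed with DESeq2 1.42.0, with RLE scaling, without the filter on low counts, with a block for the library or set number, over sets of at least 5 cells, after thinning to 200000 reads, with a stricter detection of 10 or more reads, with group means for the correlations, and without each library or set in turn. The scripts were tested on simulated counts.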

Additional observations from a re-analysis of the deposited data

Results flagged for a closer look

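A single set stood apart from the others of its group in 6 of the 12 combinations of a member with reads and a group of 4 to 10 sets. In each of the 6 it was the only set with reads, so the rate of about 1 in 20 by which chance would set a sample apart does not apply to these groups, which are otherwise at 0. Irx4 was at 10.2 CPM in dorsal Pdx1-GFP-high set 5, from 51 reads in 1 cell. Irx3 was at 0.715 CPM in dorsal Pdx1-GFP-low set 6, from 17 reads in 1 cell, and at 0.185 CPM in ventral Pdx1-GFP-high set 2, from 1 read. Irx2 was at 0.0624 CPM in ventral Pdx1-GFP-low set 6, from 1 read. In that same set Irx3 was at 4.06 CPM (65 reads) and Irx5 at 3.25 CPM (52 reads), and the reads of both genes came from 1 cell. That cell had Col3a1, a collagen gene of mesenchyme, at 2504 CPM and the epithelial gene Epcam at 6.44 CPM. The change of Irx2 from the low to the high Pdx1-GFP gate differed between dorsal and ventral sets by 11.69 on the log2 scale in the edgeR contrast given above.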

How the results depend on the processing

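Of the calls of single members, 95 kept their side of the threshold under the alternatives that kept every sample, and 3 lost it, all with DESeq2: Irx4 in both dorsal comparisons that called it and Irx5 on the ventral side from E10.5 to Ngn3-GFP-low cells. No call reversed. Without 1 library or set, 128 calls held and 11 did not. The counts of called members then ranged from 3 to 5 (ventral Ngn3-GFP-low against E10.5), from 1 to 2 (ventral against dorsal Pdx1-GFP+ sets), from 0 to 1 (dorsal stage change) and from 2 to 3 (ventral Ins1-RFP+ against Ngn3-GFP-high). The library or set number was also fitted as a replicate block: it changed no call, and gave Irx2 -7.84 (edgeR adjusted p = 0.0058) between the sides in Pdx1-GFP+ sets. Deviations of same-numbered bulk samples correlated between 0.239 and 0.664 in the comparisons of the sides. In the other bulk comparisons they correlated between -0.00757 and 0.236. The numbers were not shown to pair the samples. Without the 25 cells that carry a human stem cell protocol in the labels, the comparisons with ventral E9.5 sets still called 0 members. Of the shares of cells 45 stayed within their interval and 29 moved, most of them with the stricter detection of 10 or more reads. Depth limits Irx3 to Irx6, which rest on a few reads per bulk library and a few cells per set.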
